A study of Mus musculus with 15 samples.

Results

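Nfe2l2, the gene of the transcription factor Nrf2, was measured in mouse liver together with its inhibitor Keap1 and 8 of its classical targets, namely Gclc, Gclm, Txnrd1, Srxn1, Nqo1, Cbr3, Hmox1 and Ephx1. All 10 genes were found by their symbol in the probe annotation of the arrays, out of 22032 gene symbols, and 12 probes measured them. RNA of 15 liver samples had been hybridised to single-colour arrays (group C 4, group T 5, group G 6). Arrays 3 and 4 of group C carry the same RNA code, as do arrays 4 and 5 of group T, and each pair differed less than any other pair of its group, so each was averaged and counted as 1 mouse. The mice were then 3 in C, 4 in T and 6 in G, and the codes C1 to C3, T1 to T4 and G1 to G6 name them.

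All mice were male CD1 mice, an outbred stock. Group C was injected with saline at 15 days of age and later received an empty plasmid. Group T was injected at the same age with DEN (diethylnitrosamine, a carcinogen that liver enzymes turn into a DNA alkylating agent), at 25 µg per g of body weight, and received the empty plasmid. Group G was injected with DEN in the same way and received a plasmid that expresses HA-tagged Gas1 (growth arrest specific 1, a membrane-anchored protein) from the ubiquitous CAG promoter. The plasmid, 50 µg each time, was delivered by HGD (hydrodynamic gene delivery, a fast injection of a large volume into the tail vein that reaches part of the hepatocytes only) in all 3 groups, so group C is no untouched liver. Deliveries ran from week 28 to week 34 of age and livers were taken at week 35, by the description of the experiment. An age of 10 weeks stands in the sample records. All 7 hepatocyte markers looked up were well above background on all 15 arrays. In T against C 1 of them passed the threshold of 0.05, Ttr (transthyretin, a secreted plasma protein). It fell by 1.01 (adjusted p = 0.00594, limma), though it was 0.18 higher with median scaling. Of the 7, 3 were above 0 in T against C. Among these, Apoa1, an apolipoprotein, was 0.54 higher, with every T mouse above every C mouse, and did not pass (adjusted p = 0.0686, limma). Of 8 tumour markers, Tff3 (5.12), Afp (2.47) and Gpc3 (0.49) rose in T against C (adjusted p = 0.00525, 0.0156 and 0.0484, limma). Afp and Gpc3 were close to the background in C (6.04 to 6.36 and 5.93 to 5.96), so the sizes of their rises are uncertain. Of 26 alternative settings, 25 kept the call of Tff3, 22 that of Afp and 11 that of Gpc3. The summed signal of the 8 was between 688 and 993 in C, 2390 and 9920 in T and 1210 and 7840 in G. The part of these changes in the values below was not tested. In RNA of whole liver tissue, fewer cells of a type and less RNA per cell cannot be told apart.

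Nrf2 is held in the cytoplasm by Keap1, which hands it to a ubiquitin ligase for degradation. Oxidants and electrophiles modify cysteines of Keap1, Nrf2 then escapes degradation, enters the nucleus, pairs with a small Maf protein and binds antioxidant response elements in front of genes for glutathione synthesis, thioredoxin recycling, NADPH supply and detoxification. The control of Nrf2 lies mainly in the stability of the protein, which arrays do not measure, and in liver the targets are the usual readout of its activity.

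The core letters of the antioxidant response element, TGACNNNGC on either strand, were looked up in the RefSeq promoter windows (GRCm38), which span 250 bases before to 50 bases after the start of a gene. Of the 10 genes, 8 had a window, and 4 of these held the letters. They were found in 12.4% of all 32851 windows and in 14% of the 27025 genes with a window. Hmox1 and Gclc had no window. The 4 matches are shown because they mark the promoters in which the described Nrf2 recognition letters occur near the start. Capitals mark the 9 matching letters, and 10 bases stand on each side.
Nfe2l2: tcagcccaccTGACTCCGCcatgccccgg
Gclm: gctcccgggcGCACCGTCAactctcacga
Txnrd1: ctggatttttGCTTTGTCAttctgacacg
Srxn1: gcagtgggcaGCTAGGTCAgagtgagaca
The sequence of Nfe2l2 lies at chr2:75704885-75704913 on the minus strand, that of Gclm at chr3:122245413-122245441, that of Txnrd1 at chr10:82859104-82859132 and that of Srxn1 at chr2:152105542-152105570, the last 3 on the plus strand. The letters began 240 bases before the start of Nfe2l2, 134 before that of Gclm and 92 before 1 of the 3 starts of Txnrd1. In Srxn1 they began at base 29 after the start. In Nfe2l2 they read along the gene, and in the other 3 genes on the opposite strand. No match overlapped the AP-1 letters TGACTCA or TGAGTCA. The windows of Keap1, Nqo1, Cbr3 and Ephx1 did not hold the letters. Sequence outside the windows was not searched, so elements farther from the start would be missed. Binding of Nrf2 to any of these letters was not measured.

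None of the 10 genes passed the test in any of the 3 comparisons (limma, adjusted p over all genes, threshold 0.05). Between T and C, 0 of 10 were called where 2.38% of all genes were. Between G and T it was 0 of 10 where 0.127% were, and between G and C 0 of 10 where 0.427% were. At an unadjusted p under 0.05 in limma the counts were 2, 3 and 2 of the 10 genes, beside 20.3%, 10.9% and 13.2% of all genes. The methods' t-test called 0 in each comparison after the same adjustment, and its counts at an unadjusted p under 0.05 were 2, 3 and 0. All levels below are log2 signals after normalisation, and all differences are log2 fold changes between group means. A p that misses the threshold does not show that groups are equal, so the 95% interval of the difference is given for the genes described.

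**Figure D1:**
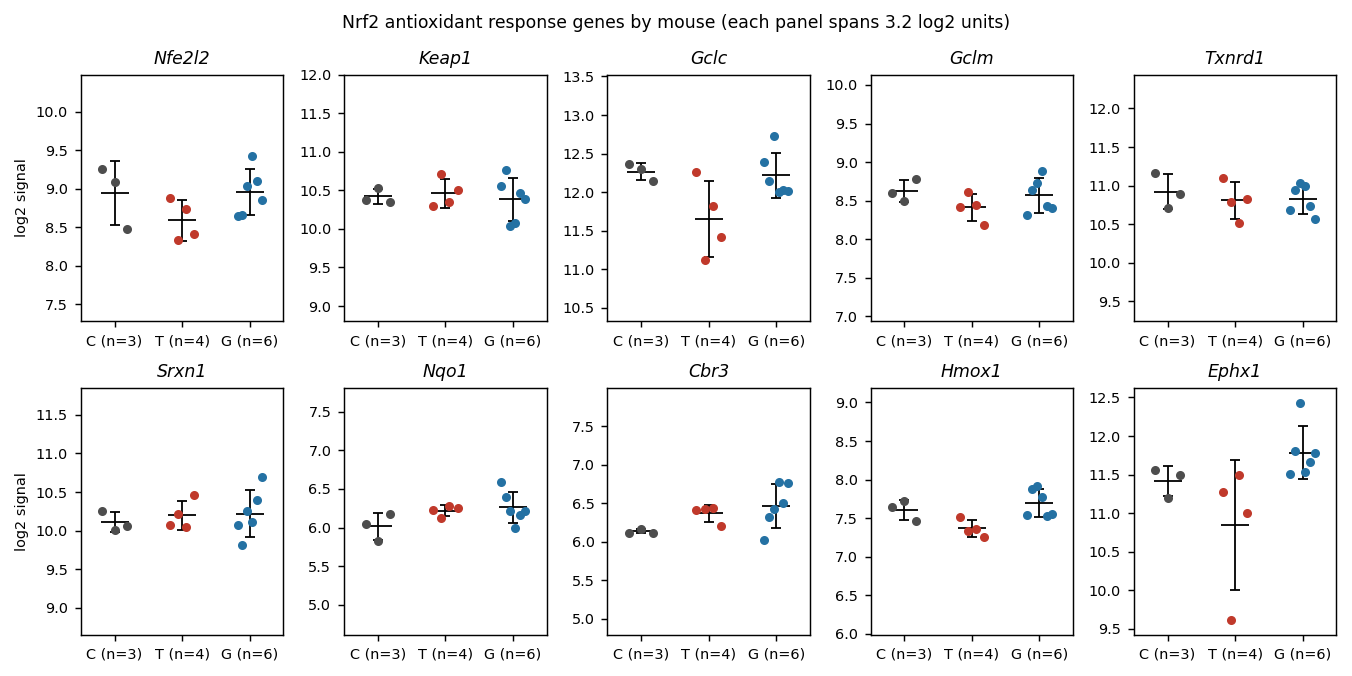
Normalised log2 signal (y axis) of the 10 genes in each mouse of groups C, T and G (x axis). Points are mice, the horizontal dash is the group mean and the bars are 1 SD. Every panel spans 3.2 log2 units, so the heights of points can be compared within a panel and their spread between panels. Ephx1 had the widest spread of the 10 genes (2.81 between its lowest and highest mouse), with mouse T2 at 9.62.

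Of the regulators, Nfe2l2 was at 9.26, 9.09 and 8.48 in the 3 C mice and at 8.88, 8.33, 8.74 and 8.41 in the 4 T mice. The G mice lay between 8.65 and 9.43 (median 8.95). The groups overlapped, and the C mice (8.94 ± 0.41, SD, n = 3) spread as widely as the distance between the means. Nfe2l2 was 0.36 lower in T than in C (interval -0.82 to 0.11, adjusted p = 0.395, limma), a value that was -0.20 without C1 and -0.59 without C3, and 0.37 higher in G than in T (interval -0.03 to 0.76, adjusted p = 0.494, limma). Between G and C the difference was 0.01 (interval -0.42 to 0.44).

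Keap1, the cytoplasmic inhibitor, had means of 10.42 ± 0.10 (SD, n = 3) in C, 10.46 ± 0.19 (SD, n = 4) in T and 10.38 ± 0.28 (SD, n = 6) in G. Its lowest mouse was G3 at 10.04 and its highest G2 at 10.76, so group G spanned all other mice. The differences were 0.04 for T against C (interval -0.30 to 0.38), -0.08 for G against T (interval -0.37 to 0.21) and -0.04 for G against C (interval -0.36 to 0.28). Arrays of the same RNA differed by up to 0.20 for Keap1, which was more than any of these differences.

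Glutathione synthesis was covered by Gclc, the catalytic subunit of glutamate-cysteine ligase, the rate-limiting enzyme, and Gclm, its modifier subunit. Gclc was at 12.36, 12.30 and 12.14 in group C. The T mice were at 12.26, 11.12, 11.82 and 11.42, and the G mice lay between 12 and 12.73 (median 12.08). Mouse T1 was at the level of group C, and the other 3 mice of group T lay below all mice of groups C and G. The mean of T was 0.61 lower than that of C (SE 0.24, interval -1.12 to -0.10, adjusted p = 0.171, limma), and that of G was 0.57 higher than that of T (SE 0.20, interval 0.13 to 1.00, adjusted p = 0.320, limma). Without mouse T1 the difference between T and C was -0.82 and passed the threshold (adjusted p = 0.0499, limma). Without mouse T2 it was -0.44 for T against C and 0.39 for G against T, and with median scaling T was 0.37 higher than C. Within each slide the difference kept its sign, with -0.97 and -0.40 for T against C and 1.00 and 0.35 for G against T. Group G and group C differed by -0.05 (interval -0.52 to 0.42).

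Gclm lay between 8.50 and 8.78 in C, between 8.18 and 8.61 in T and between 8.31 and 8.89 in G, and the 3 groups overlapped. The differences of Gclm had the same signs as those of Gclc with smaller sizes, -0.21 for T against C (interval -0.51 to 0.08) and 0.15 for G against T (interval -0.09 to 0.40). Neither passed the threshold (adjusted p = 0.427 and 0.674, limma), and the second was 0.08 without T4.

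Thioredoxin reductase 1 (Txnrd1), which uses NADPH to recycle thioredoxin, and sulfiredoxin (Srxn1), which repairs overoxidised peroxiredoxins, were the 2 genes with the smallest differences between G and T. Txnrd1 had means of 10.92 ± 0.22 (SD, n = 3) in C, 10.81 ± 0.24 (SD, n = 4) in T and 10.83 ± 0.19 (SD, n = 6) in G. Its difference between G and T was 0.02 (interval -0.25 to 0.29). Srxn1 had means of 10.11 ± 0.13 (SD, n = 3), 10.20 ± 0.19 (SD, n = 4) and 10.22 ± 0.30 (SD, n = 6), and its difference between G and T was also 0.02 (interval -0.29 to 0.33). The sign of these small values turned with the scaling, to -0.14 for Txnrd1 and -0.16 for Srxn1 with the signal that the scanner software had processed and to -0.11 for both genes with median scaling.

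Nqo1, the quinone reductase long used as a marker of Nrf2 activity, and Cbr3, a carbonyl reductase, were close to the background. Nqo1 was not well above background on any of the 4 C arrays, whereas 1 of 5 T arrays and 3 of 6 G arrays showed it. For Cbr3 it was 0 of 4 arrays in C, 2 of 5 in T and 4 of 6 in G. Levels of Nqo1 were 6.04, 5.83 and 6.18 in C, 6.23, 6.12, 6.28 and 6.25 in T, and between 5.99 and 6.59 in G (median 6.21). Cbr3 was at 6.12, 6.17 and 6.12 in C, at 6.41, 6.42, 6.44 and 6.20 in T, and between 6.02 and 6.77 in G (median 6.46). Every T mouse was above every C mouse for Cbr3, which held for 1 of the 10 genes beside 19.1% of all genes that did not overlap between these groups.

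As group C gave no measured level for Nqo1 and Cbr3, their changes are limits. The mean of Cbr3 was at least 1.01-fold higher in T and at least 1.08-fold higher in G than the lowest signal that passed for well above background on the C arrays, and for Nqo1 no such limit above 1 was reached. The limit of Cbr3 in T rests on a mean to which 3 of 5 arrays gave no signal well above background. In G, 4 of 6 arrays gave such a signal, so that limit also rests on a mean that includes arrays without one. The fitted values compare signals near the background and are no folds. In them G exceeded C by 0.24 for Nqo1 (adjusted p = 0.373, limma) and by 0.33 for Cbr3 (adjusted p = 0.324, limma). These were the 2 genes with an unadjusted p under 0.05 in that comparison (0.0476 and 0.0323).

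Hmox1, haem oxygenase 1, which opens the haem ring and is also expressed in macrophages, was at 7.64, 7.72 and 7.46 in group C. The T mice were at 7.52, 7.34, 7.36 and 7.26, and the G mice between 7.53 and 7.92 (median 7.66). Every G mouse lay above every T mouse, T1 at 7.52 and G5 at 7.53 being closest. The mean was 0.33 higher in G than in T (SE 0.09, interval 0.13 to 0.53, fold 1.26, unadjusted p = 0.0039, adjusted p = 0.195, limma), and T was 0.24 lower than C (adjusted p = 0.247, limma). The slides gave 0.46 and 0.26 for G against T.

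Hmox1 had 2 probes with different outcomes. The brighter probe, at chr8:77624207-77624266 (mm9, as the files give it), differed by 0.52 between G and T (SE 0.14) and by -0.46 between T and C (SE 0.17). The other probe, at chr8:77620797-77620856, differed by 0.13 (SE 0.08) and -0.02 (SE 0.09), and was well above background on 2 of the 4 arrays of group C. On the brighter probe alone the G and T mice overlapped, with G5 at 8.43 and G6 at 8.50 below T1 at 8.52. They overlapped on the other probe as well, with G1 at 6.46 below T4 at 6.48. The summed signal of 11 macrophage markers was between 2220 and 3260 in C, 2690 and 3520 in T and 2670 and 3890 in G, and none of the 11 was below background on all arrays. In T against C, 4 of the 11 were higher and 1 lower at an unadjusted p under 0.05 (limma), beside 20.3% of all genes. Emr1, which encodes the macrophage surface protein F4/80, was the 1 that passed the threshold. It rose by 0.31 (adjusted p = 0.0262, limma), with every T mouse above every C mouse, and differed by -0.10 between G and T (adjusted p = 0.494, limma). Its C mice, between 6.08 and 6.28, were close to the background. Of 26 alternative settings 18 kept its call, which was lost without C1, C2, T2 or T3. Cd68 went the other way, between 6.16 and 6.51 in C and between 6.05 and 6.22 in T. The part of macrophages in the Hmox1 values was not tested.

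Ephx1, microsomal epoxide hydrolase, which opens reactive epoxides with water, had the largest difference of the 10 genes between G and T. It was at 11.56, 11.20 and 11.50 in the C mice and at 11.27, 9.62, 11.49 and 11 in the T mice. The G mice lay between 11.51 and 12.43 (median 11.72). Every G mouse lay above every T mouse, T3 at 11.49 and G1 at 11.51 being closest, and G3 stood highest and T2 lowest. The mean was 0.94 higher in G than in T (SE 0.30, interval 0.29 to 1.60, fold 1.92, unadjusted p = 0.00855, adjusted p = 0.264, limma). The difference between T and C was -0.58 (SE 0.36, interval -1.35 to 0.20).

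The size of these differences depended on mouse T2. Without it, Ephx1 differed by 0.53 between G and T (adjusted p = 0.422, limma) and by -0.17 between T and C. The slide that holds T2 also holds G3, the highest mouse. It gave 1.60 for G against T and the other slide 0.41. The 2 probes of Ephx1, at chr1:182924124-182924183 and chr1:182919689-182919748 (mm9), differed by 0.83 and 1.06 between G and T, so both had the same sign. On each probe alone the G and T mice overlapped. On the first G1 was at 9.12 and T3 at 9.19, and on the second G4 was at 13.76 and T3 at 13.79. T2 was also the lowest of all 13 mice for Gclc and Nfe2l2. It stood apart outside the antioxidant genes as well. It was the highest mouse for Hp (18.32) and Hpx (17.07), of a list on haem and iron, named after their values were seen. G3 was the highest for Gclc, Hmox1 and Ephx1.

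Hmox1 and Ephx1 were the 2 of 10 genes whose G and T mice did not overlap, beside 3.13% of all genes. This held for the average of the probes of each gene. On every single probe of both genes the G and T mice overlapped. Gclc was the other gene with an unadjusted p under 0.05 between G and T. Of the 10 genes, 9 had a difference above 0 between G and T beside 46.1% of all genes, and the exception was Keap1. With median scaling and with the signal processed by the scanner software it was 7 of 10. Among the 9, Nqo1 (0.04) and Cbr3 (0.10) lay close to the background. Txnrd1 and Srxn1 (0.02 each) turned their sign in 6 and 8 of 26 alternative settings. The median difference of the 10 genes was 0.13 for G against T, -0.16 for T against C and 0.05 for G against C, whereas the medians of all genes were -0.01, 0.01 and -0.003. With median scaling all 10 genes were above 0 in T against C, as was the median of the 8478 genes seen on all arrays, at 0.65, and 3 of the 10 exceeded that median. That scaling called 2818 genes higher and 14 lower in T against C, where 268 and 257 were called otherwise. The signal processed by the scanner software moved the median of all genes in T against C to -0.40. As the T mice enter both T against C and G against T, a low T mean gives opposite signs in them.

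**Figure D2:**
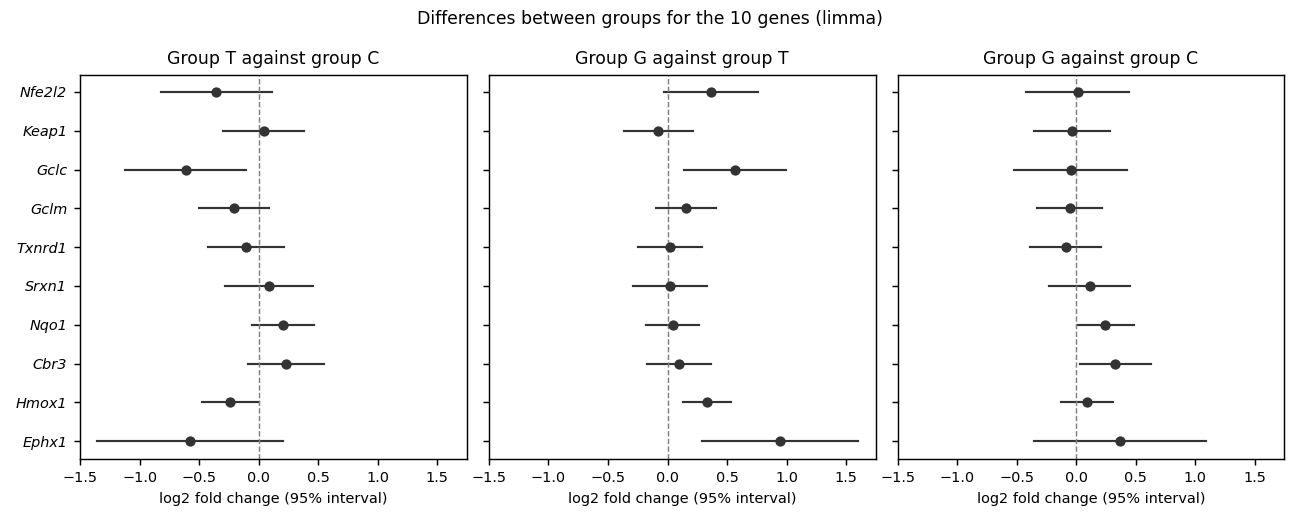
Log2 fold change (x axis) of each of the 10 genes (y axis) between groups T and C, G and T, and G and C. Points are differences of group means and lines are 95% intervals of limma's test. Intervals for Gclc, Hmox1 and Ephx1 lie above 0 in G against T without adjustment, and no value passed the threshold after adjustment.

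The spread between mice limited these comparisons. The SD within groups was 0.53 for Ephx1, 0.34 for Gclc and 0.31 for Nfe2l2, larger than that of 97.2%, 91.7% and 89.7% of the genes seen on all arrays, whose median was 0.16. It was smallest for Hmox1 (0.15). Arrays of the same RNA differed by 0.20 at most for any of the 10 genes, below the range over mice of every gene (0.64 for Txnrd1 to 2.81 for Ephx1).

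The wider pathway was read in 4 lists that hold 69 measured genes besides the 10, with enzymes of conjugation and export, reductases and further targets, glutathione and thioredoxin enzymes, and NADPH supply. Between T and C, 6 of the 69 passed the threshold, 1 higher and 5 lower, beside 2.38% of all genes. Between G and C 3 passed, 2 higher and 1 lower, beside 0.427% of all genes. Between G and T 0 passed in limma, with 20 genes higher and 3 lower at an unadjusted p under 0.05, beside 10.9% of all genes. The methods' t-test called 0 of the 69 in each comparison, with 13 higher and 1 lower at an unadjusted p under 0.05 between G and T. Each of the calls named below was lost with some of the 26 alternative settings.

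Of the called genes of these lists, one of NADPH supply had the largest change. Me1, malic enzyme 1, which makes NADPH from malate in the cytosol, was at 12.11, 11.96 and 11.65 in group C. The T mice were at 10.56, 9.15, 9.63 and 10.08 and the G mice between 10.30 and 11.28. Every T mouse lay below every C mouse. Me1 fell by 2.05 in T against C (SE 0.29, adjusted p = 0.00992, limma) and kept that call in 24 of 26 settings, the exceptions being median scaling and the methods' t-test. It was 1.13 higher in G than in T (SE 0.25), which did not pass (adjusted p = 0.102, limma).

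Pgd, 6-phosphogluconate dehydrogenase of the pentose phosphate pathway, was between 9.15 and 9.51 in C, between 8.38 and 8.85 in T and between 8.55 and 8.99 in G. It fell by 0.71 in T against C (adjusted p = 0.0175, limma) and by 0.60 in G against C (adjusted p = 0.0471, limma), but was 0.16 and 0.20 higher with median scaling. The first call was lost without C1, C2 or T3 and the second without C1, C2, T1, T2, T4, G2, G3, G4 or G5. All 7 NADPH genes had values below 0 in T against C, with a median of -0.38, whereas 6 of 7 were above 0 with median scaling, with a median of 0.52. Of the 7, Pgls (-0.45) rested on C1 alone in C and on T2 and T4 in T. Taldo1 was at -0.02 (SE 0.09).

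Among conjugation enzymes, Gstm6, a mu class glutathione S-transferase, fell by 1.30 in T against C (SE 0.24, adjusted p = 0.0196, limma). It was at 11.22, 10.72 and 11.19 in C, at 10.13, 8.93, 9.79 and 10.12 in T and between 10.19 and 10.49 in G, and the call was lost without C1 or T3, with the processed signal, with the methods' t-test and with median scaling, where the value was -0.36. Every G mouse was above every T mouse and below every C mouse. Ugt2b35, a glucuronosyltransferase, rose by 0.47 in T against C (adjusted p = 0.0207, limma) and by 0.52 in G against C (adjusted p = 0.0269, limma), and its C mice, between 7.98 and 8.06, lay below all others. The first call was lost without C1, C2, T2, T3 or T4 and the second without C1, C2, G2 or G3.

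The 22 conjugation and export genes had a median difference of -0.39 in T against C, where 6 were above 0, but 19 were with median scaling. In G against T it was 0.34 and 20 were above 0, and 16 with median scaling. None passed in G against T (limma), and 10 were higher and 0 lower at an unadjusted p under 0.05. Besides Gstm6, Gsta1 was the one gene of the list whose G and T mice did not overlap, and it is named after its values were seen. It encodes an alpha class transferase, was between 6.56 and 7.51 in T and between 7.59 and 8.41 in G, and differed by 0.94 (adjusted p = 0.134, limma). Probes of near-identical Gst genes may bind each other's transcripts, so the values of these family members are uncertain.

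**Figure D3:**
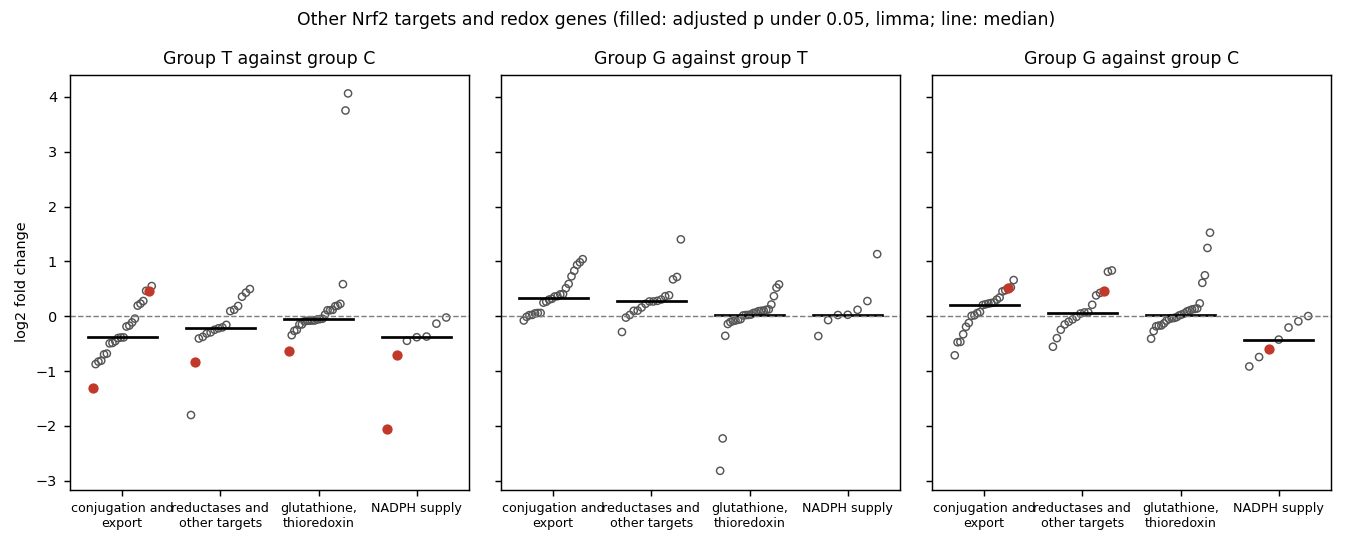
Log2 fold change (y axis) of the genes of 4 lists (x axis) in the 3 comparisons. Each point is a gene, filled where its adjusted p was under 0.05 in limma, and the line is the median of the list. Filled points are 6 in T against C, 0 in G against T and 3 in G against C, and the median of the conjugation list was -0.39, 0.34 and 0.21 in turn.

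Of the reductases and further targets, Aldh1a1, a retinal dehydrogenase, fell by 0.84 in T against C (adjusted p = 0.0236, limma) and was 0.24 higher with median scaling. All 3 C mice, between 15.06 and 15.17, lay above the 4 T mice, between 13.90 and 14.50. The call was lost without C1, C2, T2 or T3. Akr1b8, an aldo-keto reductase, rose by 0.46 in G against C (adjusted p = 0.0403, limma), from between 6.86 and 6.95 to between 7.28 and 7.43, and this call was lost without C1, C2, C3, T2, T3, G1, G2, G3, G4 or G5. The T mice, between 6.85 and 7.31, overlapped both.

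Among glutathione and thioredoxin enzymes, Cat, catalase, fell by 0.64 in T against C (adjusted p = 0.0333, limma) and was 0.35 higher with median scaling. It was between 10.88 and 11.39 in C and between 10.22 and 10.75 in T, and the call was lost without C1, C2, T2, T3 or T4. The median of the 24 genes of this list was -0.06 in T against C, where 10 were above 0, and 0.03 in G against T, where 15 were. Both signs turned with the processed signal (0.09, and -0.15 with 5 of 24 above 0) and with median scaling (0.91, and -0.10 with 5 of 24 above 0).

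The widest differences of the 4 lists were those of the metallothioneins Mt1 and Mt2, which bind zinc and copper and are named after their values were seen. Mt1 was between 8.90 and 9.59 in C, at 9.80, 16.74, 12.72 and 12.81 in T and between 9.90 and 11.42 in G. Mt2 was between 8.04 and 8.49 in C, at 9.18, 16.40, 11.94 and 11.66 in T and between 9.12 and 9.92 in G. Every T mouse and every G mouse lay above every C mouse for both genes, and T2 stood highest. The differences did not pass, with 3.75 and 4.06 in T against C (adjusted p = 0.0851 and 0.0727, limma) and -2.23 and -2.82 in G against T (adjusted p = 0.406 and 0.299, limma).

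**Figure D4:**
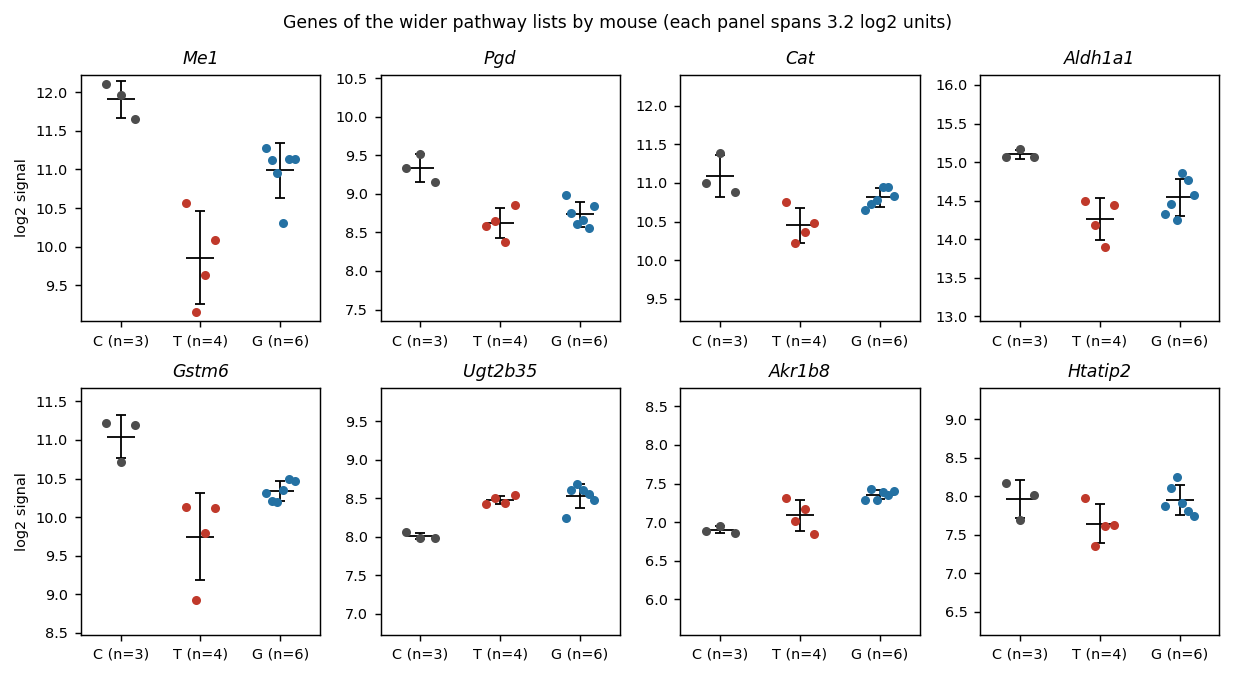
Normalised log2 signal (y axis) of 8 genes of the wider lists in each mouse of groups C, T and G (x axis), with the group mean as a dash and 1 SD as bars. Every panel spans 3.2 log2 units. Me1 had the largest fall in group T, from 11.65 or more in C to 10.56 or less, and Htatip2 is shown for its likeness to the 10 genes.

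The partners and competitors of Nrf2 were read as a list of 14 genes, such as small Maf proteins and the repressor Bach1. None of the 14 passed in any comparison (limma). At an unadjusted p under 0.05 in limma, 3 were higher in T than in C, beside 20.3% of all genes. In G against C 2 were higher, beside 13.2%, and between G and T 0 differed, beside 10.9%. The first 2 counts are thus near the share of all genes. The genes were Maff (0.44), Mafk (0.41) and Bach1 (0.38) in T against C, and Mafk (0.58) and Maff (0.44) in G against C. They are named after their values were seen. Every T mouse and every G mouse was above every C mouse for Maff. Of all genes, 19.1% did not overlap between T and C. Maff was close to the background in C (6.11, 6.20 and 6.20) and well above it on 11 of 15 arrays. The size of its differences is therefore uncertain. None of the 10 genes had G and C mice that did not overlap, beside 5.86% of all genes.

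Lists of other stress and zonation pathways, read beside these, held 3 more called genes. Asns, asparagine synthetase and a target of Atf4, rose by 2.48 in T against C (adjusted p = 0.0497, limma). Ass1, argininosuccinate synthase of the urea cycle, fell by 0.60 in T against C (adjusted p = 0.0134, limma), but was 0.49 higher with median scaling. Pck1, the gluconeogenic enzyme PEPCK, rose by 1.96 in G against C (adjusted p = 0.0495, limma). Of 26 alternative settings, 11 kept the call of Asns, 22 that of Ass1 and 9 that of Pck1. The call of Ass1 was lost without C2, that of Asns without C1, C2, C3, T2, T3, T4, G1, G3 or G4, and that of Pck1 without C1, C2, C3, T2, T4, G1, G2, G3, G4 or G5. Another of these lists held 10 genes of the drug-sensing receptors CAR and PXR and their targets, and none was called. Its median was -0.66 in T against C, with 2 of 10 above 0. In G against T it was 0.17, with 8 of 10 above 0. The part of these receptors in the values of the Nrf2 targets was not tested.

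The mean of the standardised levels of 8 of the 10 genes, those seen on all arrays, was lowest in T2 (-0.77), T4 (-0.66) and T3 (-0.61), and highest in G3 (0.73) and C1 (0.57). T1 (-0.03) lay among the mice of C and G, which ran from -0.19 to 0.73. Over the 13 mice, the genes whose levels followed this mean most closely among 7922 others were Tmem56 (r = 0.90), Ilvbl (r = 0.86), Ptplad1 (r = 0.857), Htatip2 (r = 0.854) and Tymp (r = 0.845). These values describe the 13 livers, which share 3 groups and 2 slides. Htatip2 also stands in the list of reductases and further targets.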

How the data were processed

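The authors deposited the scanner output of 15 single-colour Agilent arrays, made with Feature Extraction 10.7.3.1, which holds the intensity of each spot and of its background with quality flags. The authors deposited log2 values in a table of their own, made by normexp correction and quantile normalisation, which differed from the values used here by 0.00298 in the median. Here the mean intensity was corrected for background by normexp with an offset of 50, and log2 values of the 59305 spots other than controls were quantile normalised. Between 218 and 3692 spots per array had an outlier flag and were not used, probes were centred and averaged by symbol (29522 probes, 22032 genes), and arrays of 1 RNA code were averaged (where the SD of their differences was under 0.7 of the next smallest in the group). Arrays have no read depth. Between 15707 and 29765 spots per array were well above background, and the number of mice limits the precision. Groups come from the sample records.

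Groups were compared with limma 3.58.1 (R 4.3.3, package data.table in version 1.17.8), lmFit and eBayes, with Benjamini-Hochberg adjustment over all genes and a threshold of 0.05. The scripts were tested on simulated data. Where no array of a group had a probe well above background, that group gave a limit only. All 10 genes are described, and of the wider lists the called genes, at most 4 per list and comparison, and the 5 genes most like the mean of the 10. The genes and lists were chosen with earlier results of these data known. Each slide held arrays of all 3 groups. Nothing states that the mice are independent beyond their labels, so p-values measure the spread between these samples. Alternatives were the background correction, scaling, probe summary, dim probe filter, slide, replicate number, tests and leaving out each mouse. Promoter windows are those of RefSeq for GRCm38, and probe positions are those of mm9. The exon or UTR of a probe was not analysed here.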

Additional observations from a re-analysis of the deposited data

Results flagged for a closer look

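In 40 groups of 4 or 6 mice that were tested for a mouse far from the others (Dixon's test, which marks about 1 in 20 groups by chance), 3 were marked. Cbr3 in group T was 6.20 in mouse T4, whereas the other 3 mice of the group lay between 6.41 and 6.44, all close to the background. Ephx1 in group G was 12.43 in mouse G3, and the next mouse was at 11.80. Me1 in group G was 10.30 in mouse G4, and the next mouse was at 10.96.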

How the results depend on the processing

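None of the 10 genes passed the threshold under any alternative, except 1 in T against C with median scaling (Keap1, at 1.01, adjusted p = 0.0315) and 1 without mouse T1 (Gclc). Of 384 values of the 10 genes under 13 alternatives, 22 turned their sign. With median scaling these were Nfe2l2 (0.50), Gclc (0.37), Gclm (0.56), Txnrd1 (0.88), Hmox1 (0.25) and Ephx1 (0.36) in T against C, Txnrd1 (-0.11) and Srxn1 (-0.11) in G against T, and Keap1 (0.81), Gclc (0.76), Gclm (0.65) and Txnrd1 (0.76) in G against C. So did Aldh1a1 (0.24), Cat (0.35), Pgd (0.16), Ass1 (0.49) and Ttr (0.18) in T against C and Pgd (0.20) in G against C. With the processed signal they were Txnrd1 (0.0253) in T against C, and Txnrd1 (-0.14) and Srxn1 (-0.16) in G against T. With cyclic loess it was Keap1 (0.0003) in G against C, and with 15 separate arrays Srxn1 (-0.0288) in G against T.

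The deviations of mice of the same replicate number from their group means correlated weakly or not at all (r between -0.31 and 0.25). Mice of different numbers were not compared in this way, so a pairing by number is not excluded. With the replicate number as a block, 268, 6 and 55 genes were called, no member among them. Srxn1 turned to -0.14 in G against T, and Nfe2l2 (-0.0551), Gclc (0.14), Gclm (0.0149) and Srxn1 (-0.10) turned in G against C.

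Over all genes, T against C had 525 calls, G against T had 28, and for G against C it was 94. In this order they were 57, 3 and 1 with the processed signal, 2832, 8 and 0 with median scaling, 1947, 263 and 342 with 15 separate arrays, 799, 80 and 166 with the slide as a term, and 0, 5 and 1 with the methods' t-test. Cyclic loess gave 185 in T against C and 1 in G against C, the filter on dim probes 86 in G against T and 154 in G against C, and the brightest probe 43 in G against T. At an unadjusted p under 0.05, 3846 genes passed the t-test in T against C and 6631 limma with median scaling in G against C. The cause of these shifts was not tested.

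Leaving out 1 mouse at a time gave 89 to 761 genes in T against C, 5 to 127 in G against T and 0 (without G3, where 2460 had an unadjusted p under 0.05) to 182 in G against C, and 0 to 1 of the 10 genes in T against C. In T against C, Keap1 ranged from -0.0422 to 0.10, Txnrd1 from -0.21 to 0.01 and Srxn1 from -0.0009 to 0.16. In G against T the ranges were -0.15 to 0.0033 for Keap1, -0.0778 to 0.12 for Txnrd1, -0.0706 to 0.11 for Srxn1 and -0.0242 to 0.10 for Nqo1. In G against C they were -0.22 to 0.17 for Nfe2l2, -0.11 to 0.0293 for Keap1, -0.12 to 0.0217 for Gclm and -0.19 to 0.0296 for Txnrd1. The signal limits Nqo1 and Cbr3, which the filter on dim probes removed.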
